A study of Mus musculus with 6 samples.

Results

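Liver is rich in enzymes that oxidize alcohols, aldehydes, amines and thioethers or that split esters and epoxides. In livers of mice dosed with polystyrene microplastics (PS-MP), 0 of 37 transcripts of such enzymes passed the test for a difference from livers of mice given water, while 0.489% of all genes tested passed it. The enzyme genes were the protein-coding genes of GENCODE M21 whose symbols are Adh, Aldh, Ces, Fmo or Ephx followed by a number, kept when they reached at least 0.5 FPKM in at least 3 libraries. The name rule found 57 genes, of which 37 passed the level threshold, among 55536 genes in the files. They were 4 of 6 alcohol dehydrogenases (Adh), 14 of 21 aldehyde dehydrogenases (Aldh), 13 of 19 carboxylesterases (Ces), 4 of 7 flavin-containing monooxygenases (Fmo) and 2 of 4 epoxide hydrolases (Ephx). Levels therefore chose these genes and are given as a description, while the difference between the groups had no part in the rule. FPKM divides reads by exon length and by library size, so levels are set side by side between genes. The length is that of all annotated exons of a gene merged, which can exceed that of the transcript expressed. Comparisons of level between genes are therefore approximate.

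All mice were males of the inbred strain C57BL/6 and entered the study at 6 weeks of age. PS-MP mice were dosed orally with 0.4 mg/day of polystyrene particles, 2 times weekly over 8 weeks, and the others received water by the same route and schedule. RNA sequencing of whole liver gave 3 libraries for PS-MP and 3 for water, and the comparison asks how liver transcripts differ with and without PS-MP. Whether libraries of the same group stand for different animals is not stated in the labels. Every p-value therefore sets a group difference against the variation between these libraries, which may be technical. The limma fits moderate that variation across genes. In a bulk sample, fewer cells of a type and less RNA per cell cannot be told apart.

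Alcohol dehydrogenases convert alcohols, including ethanol and retinol, to aldehydes, and aldehyde dehydrogenases oxidize aldehydes to acids. Carboxylesterases hydrolyse esters and amides of drugs and of stored lipid, flavin-containing monooxygenases add oxygen to nitrogen and sulfur atoms, and epoxide hydrolases turn reactive or signalling epoxides into diols. Hepatocytes are a main site of all 5 families, and several of the enzymes also serve the breakdown of amino acids, folate, retinoids and fats.

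The libraries held 13082210 to 16948343 reads, of which the 37 genes took 1.29% to 1.48%. Hepatocyte markers such as albumin were abundant in every library, with a summed 36900 to 44100 FPKM over 9 markers in PS-MP and 43800 to 46600 FPKM in water. PS-MP replicate 3 stood apart: 12 forebrain neuron markers summed to 50 FPKM there, against 10.3 and 6.56 FPKM in PS-MP replicates 1 and 2 and 4.16 to 4.72 FPKM in water. None of these 12 markers lacked reads in all libraries, and 7 of them passed the low-value rule. In all 7 every PS-MP library lay above every water library, as in 11.1% of all genes tested. Snap25, for example, had 0.687, 0.176 and 8.49 FPKM in PS-MP and 0.0097, 0.0174 and 0 FPKM in water. Leaving out PS-MP replicate 3 thus lessens the difference in these markers between the groups but does not remove it. The sum of 12 astrocyte and oligodendrocyte markers was 29.4 to 46.6 FPKM in PS-MP and 23.8 to 28.0 FPKM in water. Most of this sum was Slc1a2, at 27.6, 24.9 and 33.1 FPKM in PS-MP and 22.2, 22.3 and 18.6 FPKM in water. Slc1a2 is also a marker of hepatocytes near the central vein, so the sum is not a measure of glial RNA alone. Over 9 white fat markers the sum ranged from 60.2 to 205 FPKM in PS-MP and from 103 to 158 FPKM in water. Most of it was Car3, at 65.9, 36.1 and 164 FPKM in PS-MP and 116, 81.3 and 65.9 FPKM in water. Adipoq, of the same list, had 0, 0 and 1.41 FPKM in PS-MP and 3.62, 0.128 and 0.648 FPKM in water. Its highest library was thus water replicate 1, and the leptin gene Lep was at 0 in every library. Cfd, also of this list, had 0, 0 and 5.38 FPKM in PS-MP and 14.6, 0.32 and 5.45 FPKM in water. The brown fat marker Ucp1 had 0, 0 and 2.79 FPKM in PS-MP and 5.59, 0 and 0.631 FPKM in water. Not every fat marker was highest in water replicate 1, as Car3 was not. The part of these other tissues in the values below was not tested. Leaving out PS-MP replicate 3 turned the sign of the log2 fold change of 11 of the 37 genes, and the value without it is given for some genes below.

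All 37 genes passed the low-value rule of the test, and none passed the level rule through libraries of 1 group only. In limma-trend, with Benjamini-Hochberg adjustment over 13299 genes, no enzyme gene passed an adjusted p of 0.05, and the smallest adjusted p among them was 0.237, for Aldh1b1. At an unadjusted p under 0.05 there were 6 of 37 (16.2%), against 13.1% of all genes tested. Of the 6, 5 were higher in PS-MP and 1 was lower, and over all genes tested 7.49% were higher and 5.57% lower at this p. Limma-voom on the recovered reads likewise called 0 of 37, where it called 1% of all genes, with a smallest adjusted p of 0.174. At an unadjusted p under 0.05 limma-voom had 7 of the 37, and 13.3% of all genes tested.

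The size of any difference was bounded on the scale of FPKM + 0.5. The log2 fold change, PS-MP over water on FPKM + 0.5, was positive for 24 genes and negative for 13, with a median of 0.04 against 0.01 for all genes tested. This balance depended on the scaling and the libraries: 21 were positive with median-of-ratios scaling and 19 with TMM scaling, and 18 to 28 with 1 library left out, the fewest without water replicate 3. The median absolute log2 fold change was 0.1 among the 37 genes and 0.11 over all genes tested. All 37 intervals at 95% lay within a 2-fold change, the outermost bounds being 0.66-fold and 1.72-fold, and 30 lay within 1.5-fold. Adding 0.5 understates the change of low genes such as Aldh3b1, and intervals of the alternative analyses are not given here. The intervals are not adjusted for the number of genes, and an interval that includes 0, as 31 did, does not show that the groups had equal levels.

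**Figure D1:**
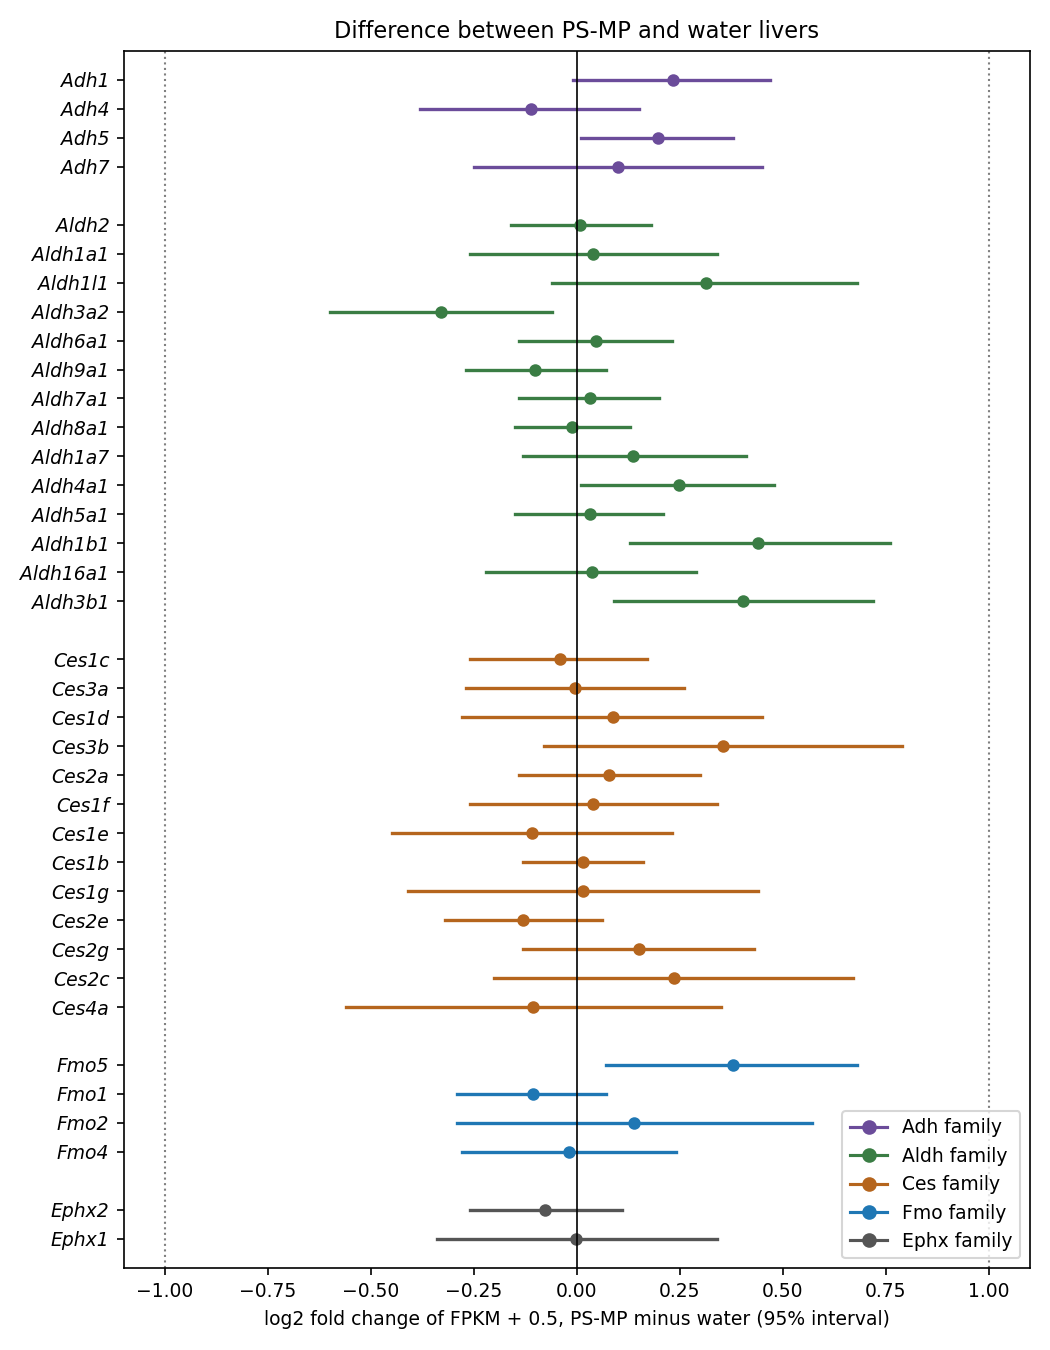
Log2 fold change of FPKM + 0.5, PS-MP minus water, for each of the 37 genes, grouped by family, with points for the limma-trend estimate and bars for its 95% interval; dotted lines mark a 2-fold change in either direction. Every bar lies inside the dotted lines, and the bars of 31 genes cross 0.

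Ranges of the groups overlapped for most genes. In 4 of 37 (10.8%) the 3 PS-MP values lay on 1 side of the 3 water values, and this was so for 19.2% of all genes tested. Adh5, Aldh1b1 and Aldh3b1 were the 3 with PS-MP above, where 11.1% of all genes tested stood, and Fmo1 was the 1 with PS-MP below, where 8.12% stood. The count was 6 without PS-MP replicate 1, 11 without PS-MP replicate 2, 7 without PS-MP replicate 3, 7 without water replicate 1, 7 without water replicate 2 and 8 without water replicate 3, in comparisons of 2 libraries with 3. Groups separate more easily with fewer libraries, and the share over all genes tested was not computed for these comparisons. These counts therefore cannot be set against the 4 or the 19.2%. Within a group the genes varied by a median coefficient of variation of 10.2% in PS-MP and 11% in water. PS-MP replicate 3 was the highest of the 6 libraries for 17 of the genes and the lowest for 7.

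**Figure D2:**
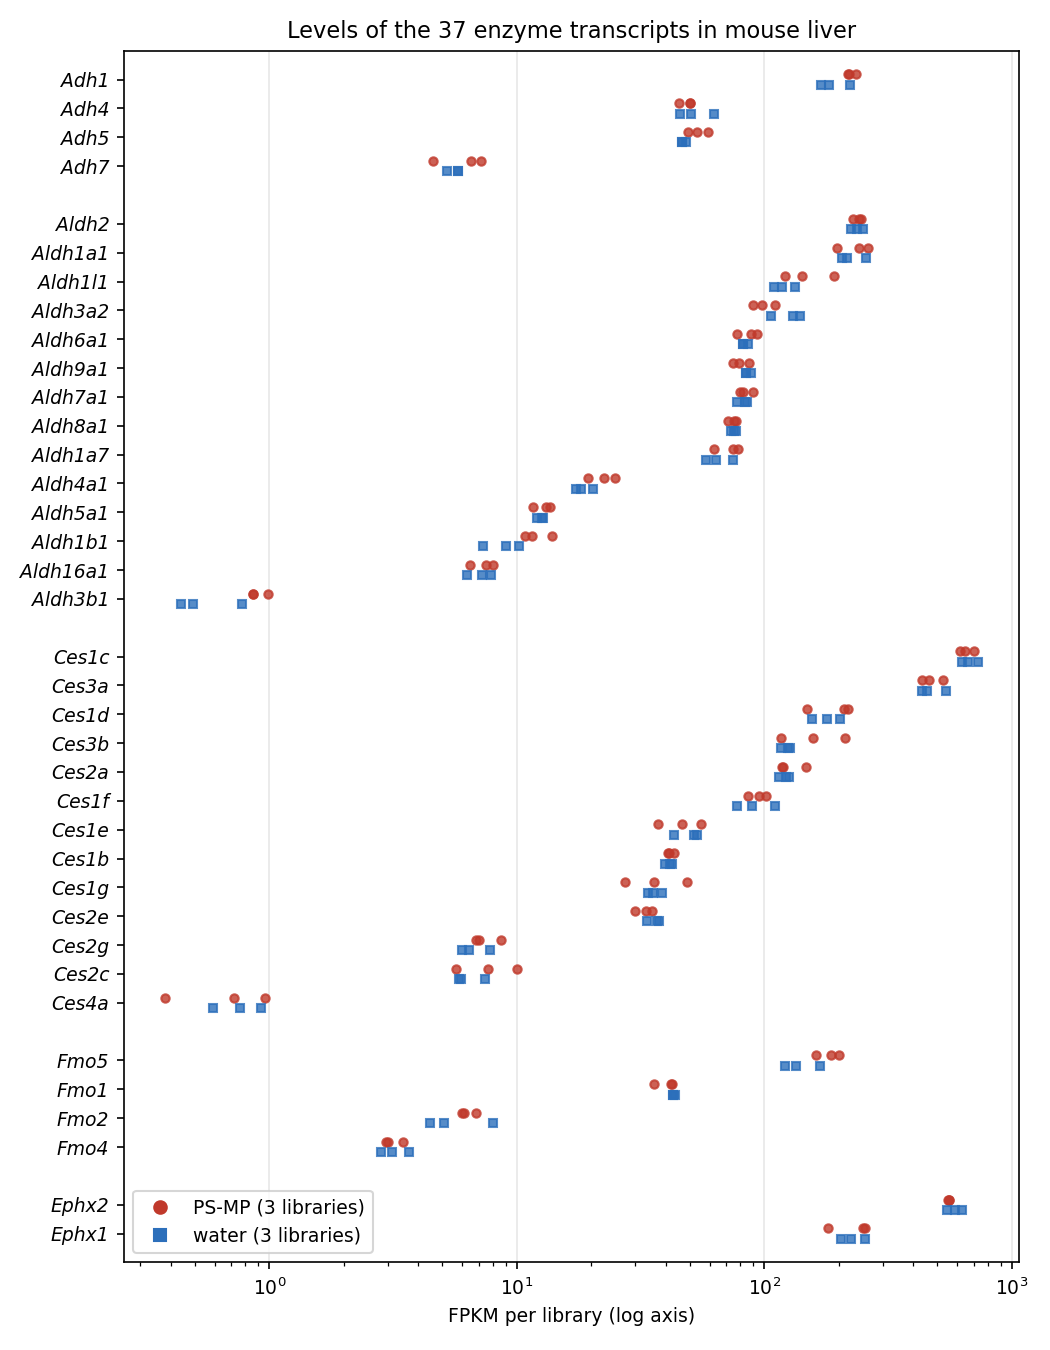
FPKM on a log axis of each of the 37 genes in each library, with circles for the 3 PS-MP libraries drawn just above squares for the 3 water libraries, and genes ordered within a family by mean level. Levels run from under 1 FPKM for Ces4a and Aldh3b1 to a mean of 665 FPKM for Ces1c, and the circles and squares of most genes overlap.

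Among alcohol dehydrogenases, Adh1 supplied most of the transcript. This class I enzyme, the main ethanol oxidizer of liver, made up 63.0% to 68.7% of the family's summed FPKM and ranked 184 of all genes. All 4 lie in a cluster on chromosome 3, with Adh1 at chr3:138260991-138290698 on the plus strand of GRCm38. Adh1 had 217, 234 and 220 FPKM in the PS-MP libraries and 222, 183 and 169 FPKM in the water libraries. Water replicate 1 lay among the PS-MP values, so the groups overlapped. For Adh1 the log2 fold change was 0.23 (SE 0.10), with an adjusted p of 0.398 in limma-trend.

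Adh5, the class III enzyme that oxidizes the glutathione adduct of formaldehyde and reduces S-nitrosoglutathione, had 53.6, 49.1 and 59.3 FPKM in PS-MP and 46.5, 46.4 and 48.0 FPKM in water. Every PS-MP library was above every water library, and the water values lay within 2 FPKM of each other. The log2 fold change of 0.20 (SE 0.08) had an unadjusted p of 0.0382 and an adjusted p of 0.351 in limma-trend, and it was 0.13 without PS-MP replicate 3. Adh4, a class II enzyme, had 49.9, 50 and 45.1 FPKM in PS-MP and 62.3, 50.3 and 45.4 FPKM in water. Its highest value came from water replicate 1, and its mean over the 6 libraries, 50.5 FPKM, was the same as that of Adh5. Adh7, the class IV retinol dehydrogenase better known from stomach, was lowest of the family at 4.6 to 7.19 FPKM in PS-MP and 5.20 to 5.78 FPKM in water. The summed FPKM of the family was 331.9 ± 6.97 in PS-MP and 296.4 ± 35.0 in water (SD, n = 3 each), a ratio of 1.12.

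Of the 14 aldehyde dehydrogenases, Aldh2 and Aldh1a1 were the most abundant. Aldh2, the mitochondrial enzyme that removes acetaldehyde (chr5:121566027-121593824, minus strand), had 241, 228 and 245 FPKM in PS-MP and 251, 237 and 223 FPKM in water. The libraries of the groups were interleaved, and the log2 fold change of 0.01 had a 95% interval of -0.16 to 0.18. Aldh1a1, a cytosolic enzyme that makes retinoic acid from retinaldehyde, had 240, 196 and 262 FPKM in PS-MP and 258, 215 and 205 FPKM in water. Its groups overlapped too, with a log2 fold change of 0.04 (interval -0.26 to 0.34). The ranges of these 2 genes overlapped, and both lay above the third gene of the family, Aldh1l1, in their ranges.

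Aldh1l1, which oxidizes formyltetrahydrofolate and so links aldehyde dehydrogenases to folate, had 142, 121 and 191 FPKM in PS-MP and 109, 133 and 118 FPKM in water. PS-MP replicate 3 was the highest library, and water replicate 2 lay above PS-MP replicate 2. The log2 fold change was 0.31 (SE 0.16; adjusted p 0.457 in limma-trend), and 0.13 without PS-MP replicate 3. Aldh1l1 is also a marker of astrocytes, and PS-MP replicate 3 had the highest brain marker sums. The astrocyte and oligodendrocyte sum was mostly Slc1a2, which hepatocytes express too. Slc1a3, another astrocyte gene, was at 0.0985, 0.00735 and 1.04 FPKM in PS-MP and 0.1, 0.0346 and 0.0807 FPKM in water. Aqp4, of the same marker list, had 3.64, 1.48 and 2.83 FPKM in PS-MP and 1.86, 3.05 and 2.1 FPKM in water. The part of brain tissue in the Aldh1l1 values was not tested.

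Among genes that were lower in PS-MP, the smallest p was that of Aldh3a2, the fatty aldehyde dehydrogenase of the endoplasmic reticulum (chr11:61223417-61267464, minus strand). It had 110, 97.7 and 90.0 FPKM in PS-MP and 139, 130 and 106 FPKM in water. Only PS-MP replicate 1 reached the range of water, just above water replicate 3. The log2 fold change of -0.33 (SE 0.12) had an unadjusted p of 0.0228 and an adjusted p of 0.296, and did not pass the test in limma-trend. Without PS-MP replicate 3 the log2 fold change was -0.26.

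Aldh1b1, a mitochondrial relative of Aldh2 (chr4:45799022-45804604, plus strand), had the smallest p of the 37 genes. It had 10.8, 11.5 and 13.9 FPKM in PS-MP and 7.28, 10.2 and 9.02 FPKM in water. All PS-MP values were above all water values, by a margin between the nearest libraries that was smaller than the spread within either group. The log2 fold change was 0.44 (SE 0.14), with an unadjusted p of 0.0122 and an adjusted p of 0.237 in limma-trend, and 0.34 without PS-MP replicate 3. Aldh4a1, which oxidizes the glutamate semialdehyde formed in proline breakdown, had 22.5, 19.4 and 24.9 FPKM in PS-MP and 20.3, 18.2 and 17.4 FPKM in water. Its groups overlapped at PS-MP replicate 2 and water replicate 1. The fitted log2 change was 0.25 (SE 0.10; unadjusted p 0.0435 and adjusted p 0.368 in limma-trend), and 0.16 without PS-MP replicate 3. Of its stretches of 50 bases, 30.0% also occur in transcripts of the read-through gene Gm21969, which had 0 to 4 reads in a library.

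Aldh3b1, a membrane-bound enzyme of fatty aldehydes, was the least abundant of the family, with 13 to 30 reads in a library. It had 0.859, 0.859 and 0.983 FPKM in PS-MP and 0.772, 0.490 and 0.438 FPKM in water. The PS-MP values lay above the water values, and 2 of the water libraries lay under the 0.5 FPKM of the level rule. The log2 difference of 0.40 (SE 0.14) had an unadjusted p of 0.0180 and an adjusted p of 0.274 in limma-trend. It was 0.62 when 0.1 in place of 0.5 was added to FPKM. In limma-voom it was 0.70, with an unadjusted p of 0.0459 and an adjusted p of 0.36. Aldh9a1, which acts in carnitine synthesis, had 74.5, 78.7 and 86.6 FPKM in PS-MP and 84.6, 84.2 and 88.1 FPKM in water. PS-MP replicates 1 and 2 were below all water libraries and PS-MP replicate 3 was among them, for a log2 fold change of -0.10 (SE 0.07).

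The other 6 aldehyde dehydrogenases had overlapping groups and log2 fold changes between -0.01 and 0.14. Aldh6a1 of valine breakdown averaged 86.3 FPKM in PS-MP and 83.3 FPKM in water, and Aldh7a1 of lysine breakdown averaged 83.7 FPKM in PS-MP and 81.8 FPKM in water. Aldh8a1 of tryptophan breakdown averaged 74.4 FPKM in PS-MP and 75.0 FPKM in water, and its log2 fold change of -0.01 had a standard error of 0.06. Aldh1a7, a rodent relative of Aldh1a1 next to it on chromosome 19, averaged 72.0 FPKM in PS-MP and 65.5 FPKM in water. Aldh5a1, which oxidizes the succinic semialdehyde made from the transmitter GABA, averaged 12.8 FPKM in PS-MP and 12.5 FPKM in water, and Aldh16a1 averaged 7.32 FPKM in PS-MP and 7.13 FPKM in water. In the order of levels, 8 of 13 neighbouring pairs of the family had ranges that overlapped.

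**Figure D3:**
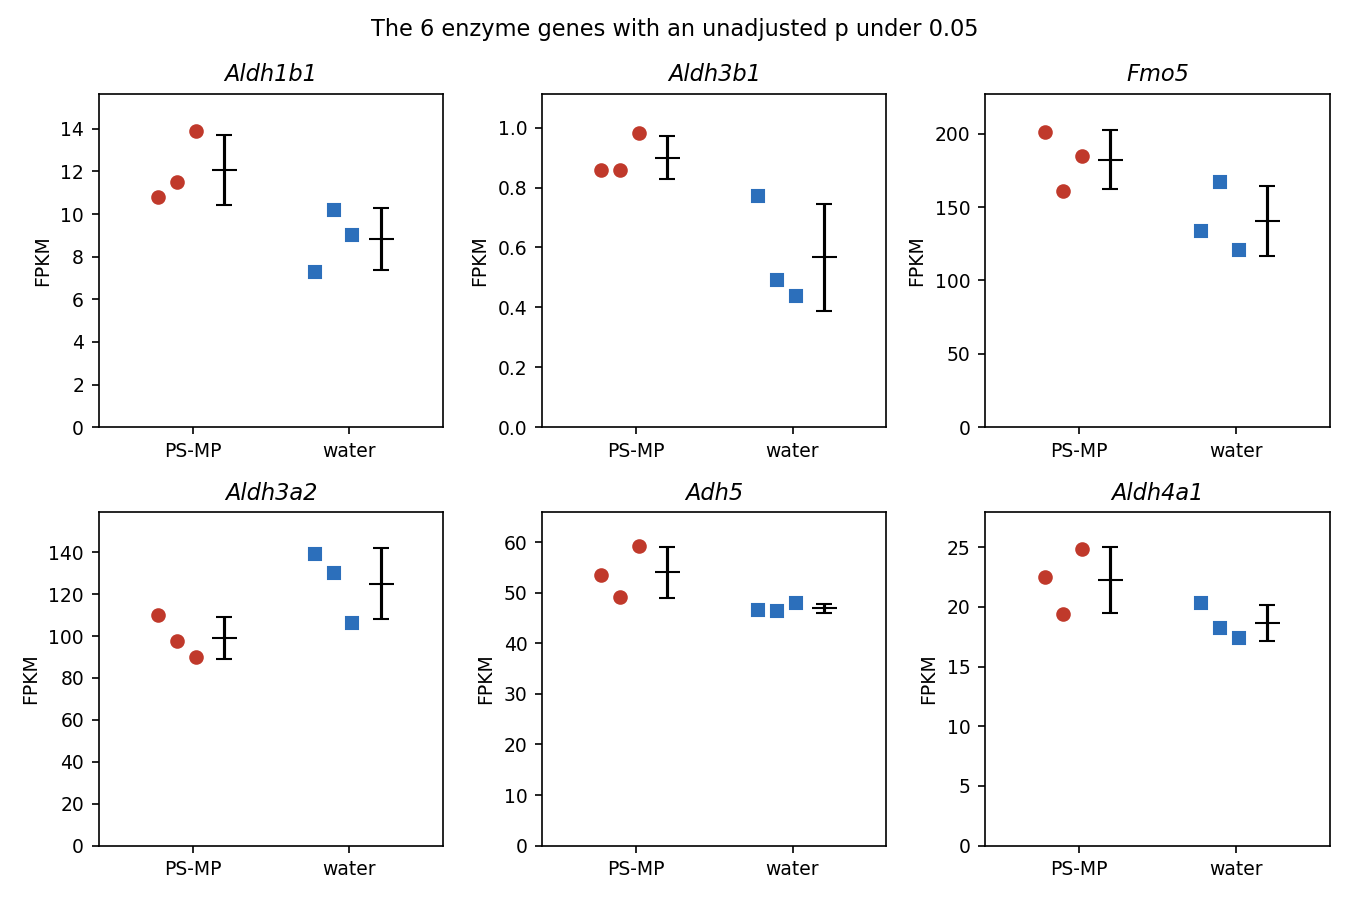
FPKM in each library of the 6 enzyme genes whose unadjusted p was under 0.05, with circles for PS-MP, squares for water, and the mean with SD (n = 3 each) beside each group. Aldh1b1, Aldh3b1 and Adh5 have every circle above every square, Fmo5 and Aldh4a1 are higher in PS-MP with overlap, and Aldh3a2 is lower with overlap; none passed the adjusted threshold.

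Carboxylesterases formed the most abundant family, with a summed 1879 ± 107 FPKM in PS-MP and 1843 ± 146 FPKM in water (SD, n = 3 each). All 13 lie on chromosome 8 in 2 clusters. The first runs along the minus strand and holds the Ces1 genes, and the second runs along the plus strand and holds the Ces2, Ces3 and Ces4 genes. Ces1c, the carboxylesterase that mouse liver secretes into plasma (chr8:93099015-93131283), ranked 77 of all genes and made up 31.1% to 37.2% of the family. It had 704, 647 and 615 FPKM in PS-MP and 731, 667 and 626 FPKM in water. The libraries of the groups interleaved, with a log2 fold change of -0.04 and a 95% interval of -0.26 to 0.17.

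Ces3a, a hydrolase of the endoplasmic reticulum with activity on triacylglycerol, was next with 432, 462 and 529 FPKM in PS-MP and 541, 454 and 434 FPKM in water. The lowest and the highest library came from different groups, and the means were 474 FPKM in PS-MP and 476 FPKM in water. Ces1d, the hepatic triacylglycerol hydrolase that mobilizes lipid for lipoprotein assembly, had 217, 149 and 209 FPKM in PS-MP and 202, 179 and 156 FPKM in water. Both ends of its range were PS-MP libraries, and the log2 fold change was 0.09 (SE 0.16), or 0.013 without PS-MP replicate 3. Ces2e had 33.3, 29.9 and 35.2 FPKM in PS-MP and 37.4, 36.8 and 33.6 FPKM in water. Water replicate 3 lay among the PS-MP values, and the log2 fold change was -0.13 (SE 0.08; adjusted p 0.536 in limma-trend).

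Some carboxylesterases spread more among the PS-MP libraries. Ces3b, the neighbour and close copy of Ces3a, had 117, 157 and 211 FPKM in PS-MP and 117, 125 and 127 FPKM in water. Its coefficient of variation was 29.3% in PS-MP and 4.37% in water, and its log2 fold change of 0.35 (SE 0.19; adjusted p 0.470 in limma-trend) was 0.14 without PS-MP replicate 3 and 0.57, at an adjusted p of 0.169, when PS-MP replicate 1 was left out. Ces1g, an enzyme that hydrolyses lipid in liver, had 35.7, 27.3 and 48.7 FPKM in PS-MP and 35.4, 38.6 and 33.7 FPKM in water, so both extremes were PS-MP libraries. Its coefficients of variation were 29.0% in PS-MP and 6.92% in water, and its log2 fold change of 0.01 was -0.20 without PS-MP replicate 3. These genes were picked for their spread after their values were seen, and the difference in spread was not tested.

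The remaining carboxylesterases had overlapping groups. Ces2a, an esterase with broad substrates, averaged 128 FPKM in PS-MP and 121 FPKM in water, and Ces1f averaged 94.0 FPKM in PS-MP and 92.2 FPKM in water. Ces1e averaged 46.4 FPKM in PS-MP and 49.6 FPKM in water, a log2 fold change of -0.11 that was -0.25 without PS-MP replicate 3. Ces1b averaged 41.7 FPKM in PS-MP and 41.2 FPKM in water. Ces2g averaged 7.50 FPKM in PS-MP and 6.71 FPKM in water, and Ces2c averaged 7.78 FPKM in PS-MP and 6.40 FPKM in water. Ces4a, with 12 to 38 reads in a library, had 0.377, 0.722 and 0.964 FPKM in PS-MP and 0.758, 0.922 and 0.594 FPKM in water.

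Several of these genes are near copies, and reads could be split between them by the authors' counting. Of all stretches of 50 bases, 25.6% of those of Ces3a occur in Ces3b and 26.2% of those of Ces3b in Ces3a. For Ces1c 13.0% and for Ces1b 11.6% occur in another gene, mostly in each other. Ces2c shares 36.1% of its stretches, mostly with the pseudogene Ces2d-ps, and Ces2a shares 17.3%, mostly with the pseudogene Gm7208. The levels of these 6 genes are uncertain to that extent.

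**Figure D4:**
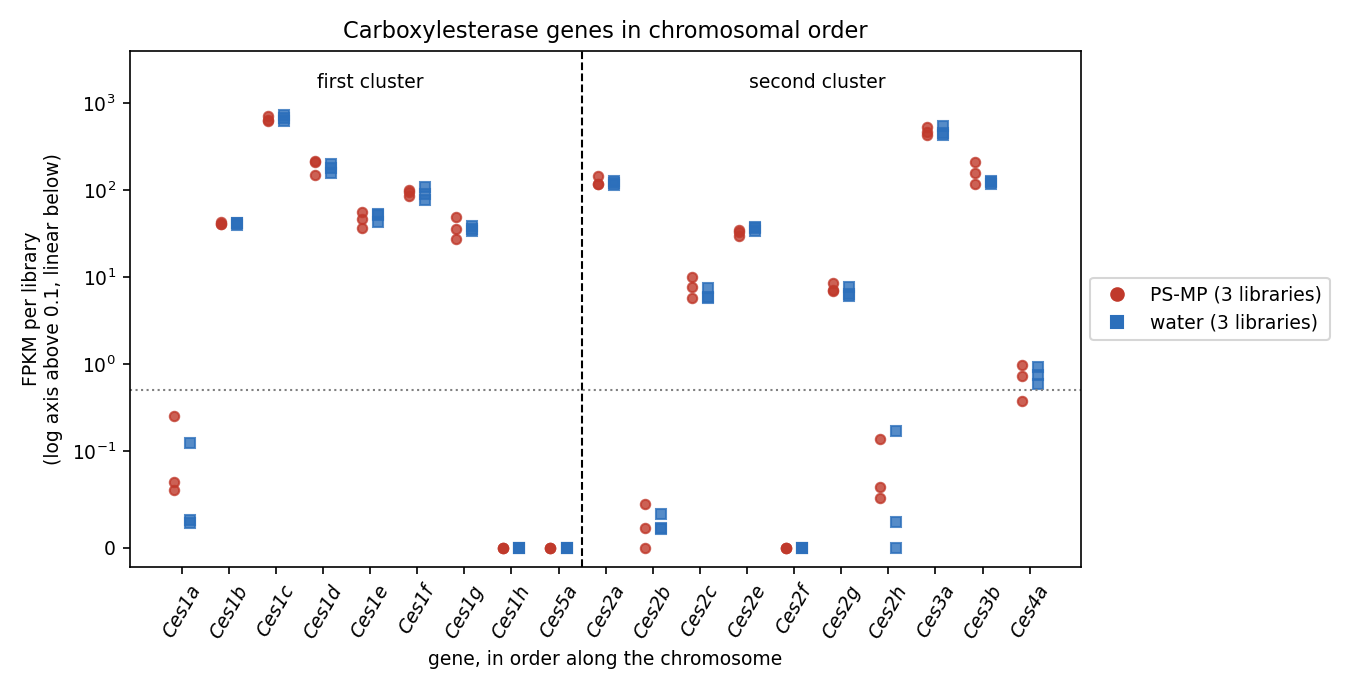
FPKM of all 19 carboxylesterase genes in their order along chromosome 8, on an axis that is logarithmic above 0.1 and linear below, with circles for PS-MP, squares for water, a dotted line at the 0.5 FPKM of the level rule and a dashed line between the 2 clusters. Neighbouring genes differ widely in level, from 0 reads for Ces1h, Ces5a and Ces2f to a mean of 665 FPKM for Ces1c, while the groups overlap for each of the 13 genes that passed the level rule.

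Among the Ces1 genes, a pair of closely similar promoters went with unlike levels. The window from 250 bases before to 50 bases after the annotated start was taken from RefSeq on GRCm38.p6 for 30 of the 37 genes, and the windows of Aldh2, Aldh7a1, Ces1d, Ces1f, Ces3a, Ephx2 and Fmo1 were not analysed here. The windows of Ces1c and Ces1b were identical at 253 of 273 aligned bases (92.7%), while their mean levels over the 6 libraries were 665 FPKM for Ces1c and 41.4 FPKM for Ces1b. The windows below are those of the Ces1 genes that hold TTATGTAA, shown 5′ to 3′ with that motif in capitals. It is a form of the D-box, the DNA letters that the clock output factors DBP and TEF are known to bind. All lie on the minus strand, at chr8:93131234-93131533 for Ces1c, chr8:93079891-93080190 for Ces1b, chr8:93229570-93229869 for Ces1e, chr8:93337160-93337459 for Ces1g and chr8:93048143-93048442 for Ces1a.
Ces1c: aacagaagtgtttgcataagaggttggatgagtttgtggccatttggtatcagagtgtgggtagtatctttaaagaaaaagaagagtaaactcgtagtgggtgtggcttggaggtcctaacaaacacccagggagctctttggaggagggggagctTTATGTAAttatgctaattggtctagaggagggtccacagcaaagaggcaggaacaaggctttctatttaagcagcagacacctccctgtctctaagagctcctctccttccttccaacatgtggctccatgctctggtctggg
Ces1b: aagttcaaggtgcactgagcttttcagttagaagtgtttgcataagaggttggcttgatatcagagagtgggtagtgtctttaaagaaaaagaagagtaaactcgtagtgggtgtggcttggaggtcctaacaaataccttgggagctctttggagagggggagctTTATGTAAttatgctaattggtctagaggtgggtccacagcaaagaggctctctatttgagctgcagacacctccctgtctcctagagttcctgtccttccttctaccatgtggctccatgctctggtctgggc
Ces1e: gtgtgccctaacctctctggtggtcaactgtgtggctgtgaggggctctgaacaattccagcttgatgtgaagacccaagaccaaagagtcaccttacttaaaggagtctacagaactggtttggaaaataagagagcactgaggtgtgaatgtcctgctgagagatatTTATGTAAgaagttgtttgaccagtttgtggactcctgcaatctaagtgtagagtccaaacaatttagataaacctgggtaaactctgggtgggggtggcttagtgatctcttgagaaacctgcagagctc
Ces1g: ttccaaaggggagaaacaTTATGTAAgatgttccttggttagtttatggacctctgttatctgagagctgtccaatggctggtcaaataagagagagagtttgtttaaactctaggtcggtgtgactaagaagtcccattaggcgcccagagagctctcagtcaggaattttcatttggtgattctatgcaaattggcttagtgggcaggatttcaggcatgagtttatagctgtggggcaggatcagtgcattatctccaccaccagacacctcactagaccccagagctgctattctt
Ces1a: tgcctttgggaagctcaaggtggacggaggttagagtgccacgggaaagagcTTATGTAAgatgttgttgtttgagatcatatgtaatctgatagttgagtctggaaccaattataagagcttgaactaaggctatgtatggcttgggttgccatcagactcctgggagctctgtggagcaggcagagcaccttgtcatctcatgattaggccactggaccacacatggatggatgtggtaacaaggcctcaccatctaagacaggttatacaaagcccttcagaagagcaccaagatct

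Dbp had 9.60, 11.1 and 17.1 FPKM in PS-MP and 1.06, 3.29 and 1.63 FPKM in water, a log2 fold change of 2.45 (SE 0.33; adjusted p 0.0366 in limma-trend). Tef had 20.9, 22.6 and 29.7 FPKM in PS-MP and 9.80, 13.2 and 11.6 FPKM in water, a log2 fold change of 1.04 (SE 0.15; adjusted p 0.0386). Both were thus higher in every PS-MP library. Their motif TTATGTAA, with TTACATAA as its other strand, was found in 0.938% of 32851 windows of this length. Counted by gene, it was in windows of 299 of 27025 genes and of 4 of the 30 enzyme genes (13.3%): Ces1b, Ces1c, Ces1e and Ces1g. These 4 are copies of each other, so the matches are not independent, and the windows were chosen after the values of Dbp and Tef were seen. The log2 fold change was 0.02 for Ces1b, -0.04 for Ces1c, -0.11 for Ces1e and 0.01 for Ces1g, with limma-trend adjusted p from 0.798 to 0.983. Ces1a, which had 1 to 9 reads in a library, and Ephx4 hold the motif too. The form TTACGTAA occurred in none of the 30 and in 34 of the 27025 genes. The E-box CACGTG, the same on both strands, occurred in Adh1 and Aldh3a2 and in 2187 of the 27025 genes. The letters TATAAA, on either strand, occurred in 7 of the 30 and in 4234 of the 27025 genes. Matching letters are a description of these windows and not of binding.

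Among flavin-containing monooxygenases, Fmo5 dominated. This enzyme, which unlike its relatives inserts oxygen next to carbonyl groups, made up 68.9% to 80.5% of the family's summed FPKM (chr3:97628804-97655282, plus strand). It had 201, 161 and 185 FPKM in PS-MP and 134, 167 and 121 FPKM in water. PS-MP replicate 2 lay below water replicate 2, and the other PS-MP libraries were above all water libraries. The fitted log2 change of 0.38 (SE 0.13) had an unadjusted p of 0.0213 and an adjusted p of 0.291 in limma-trend, and it was 0.37 without PS-MP replicate 3.

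Fmo1, which oxidizes the nitrogen and sulfur of many drugs, had 42.2, 42.0 and 35.8 FPKM in PS-MP and 43.4, 42.7 and 42.8 FPKM in water. All PS-MP values were below all water values, 2 of them by under 1 FPKM. The log2 difference was -0.11 (SE 0.08; adjusted p 0.603 in limma-trend), and -0.029 without PS-MP replicate 3. Fmo2, the lung form in many mammals, had 6.09, 6.83 and 6.01 FPKM in PS-MP and 5.07, 4.46 and 8.02 FPKM in water, with both extremes in water. Fmo4 averaged 3.14 FPKM in PS-MP and 3.20 FPKM in water. The 4 genes were separated in level, with no neighbours overlapping in range. The family's summed FPKM was 231.8 ± 19.7 in PS-MP and 192.8 ± 22.0 in water (SD, n = 3 each), a ratio of 1.2.

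Both epoxide hydrolases of liver were abundant and showed no call. Ephx2, the soluble enzyme that hydrolyses the epoxides of arachidonic acid (chr14:66084374-66124500, minus strand), had 558, 559 and 551 FPKM in PS-MP and 548, 626 and 589 FPKM in water. The PS-MP values lay close together and inside the range of water, and the log2 fold change was -0.08 (interval -0.26 to 0.11). Ephx1, the microsomal enzyme that detoxifies epoxides of aromatic compounds, had 251, 255 and 181 FPKM in PS-MP and 256, 224 and 203 FPKM in water. PS-MP replicate 3 was the lowest library, and the log2 fold change of -0.00 (interval -0.34 to 0.34) was 0.16 without it.

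At the other end, 20 of the 57 named genes stayed below the level rule, and the highest value of any of them was 0.407 FPKM, that of Ephx4 in PS-MP replicate 3. Ephx4 had 1, 1 and 10 reads in PS-MP and 0, 0 and 2 reads in water. Just inside the rule were Ces4a and Aldh3b1, with third-highest values of 0.758 and 0.859 FPKM, and just outside were Aldh1a3 and Aldh18a1, with 0.231 and 0.188 FPKM. Fmo9, Ces1h, Ces5a and Ces2f had 0 reads in all 6 libraries.

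Transcripts that overlap the enzyme genes gave the calls that the enzyme genes did not. GENCODE M21 places 20 other genes across 13 of the 37, of which 12 were tested, 9 of them not annotated as protein-coding. Of the 12, 3 were called higher in PS-MP in limma-trend, against 0.489% of all genes called in either direction; the set was looked at after values were seen. Gm16559, an antisense RNA gene at chr3:138281408-138307022 that begins beyond the end of Adh1 and runs back into it, had 4.55, 7.06 and 6.56 FPKM in PS-MP and 1.6, 2.34 and 1.98 FPKM in water. Every PS-MP library lay above every water library. The fitted log2 change was 1.40 (SE 0.18; adjusted p 0.0305 in limma-trend), beside 0.23 for Adh1. Of the 1564 exon bases of Gm16559, 136 (8.70%) also lie in exons of Adh1.

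The gene 0610031O16Rik is antisense to Adh7 and had 10.2, 10.2 and 10.8 FPKM in PS-MP and 6.95, 6.42 and 7.52 FPKM in water. The groups were apart, with a log2 fold change of 0.55 (SE 0.08; adjusted p 0.0390 in limma-trend), beside 0.10 for Adh7. It shares 108 of its 2482 exon bases (4.35%) with Adh7 exons. Gm45909, a gene model of the provisional class TEC, lies wholly in an intron of Ces1d on the same strand (chr8:93190328-93191358). It had 3.63, 3.29 and 3.64 FPKM in PS-MP and 0.766, 1.49 and 1.6 FPKM in water. Again the groups were apart, at a log2 fold change of 1.20 (SE 0.19; adjusted p 0.0487 in limma-trend), beside 0.09 for Ces1d. Reads of unspliced Ces1d transcript and of Gm45909 cannot be told apart, and since the sources used here do not give the use of strand in counting, neither can reads of an antisense gene and of its partner where they share bases.

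These 3 calls depended on the libraries. Of 15 alternative analyses, the call of Gm16559 was kept in 9, that of 0610031O16Rik in 7 and that of Gm45909 in 3. Of the 6 analyses that left out 1 library, the call of Gm16559 was kept without PS-MP replicate 1 (adjusted p 0.0197 in limma-trend) and lost without any of the others, and the calls of the other genes were lost without any 1 of the 6 libraries. Over all 15 the log2 fold change ran from 1.24 to 1.61 for Gm16559, from 0.50 to 0.60 for 0610031O16Rik and from 0.97 to 1.49 for Gm45909. The adjusted p ran from 0.0171 to 0.149 for Gm16559, from 0.0256 to 0.168 for 0610031O16Rik and from 0.0399 to 0.189 for Gm45909.

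**Figure D5:**
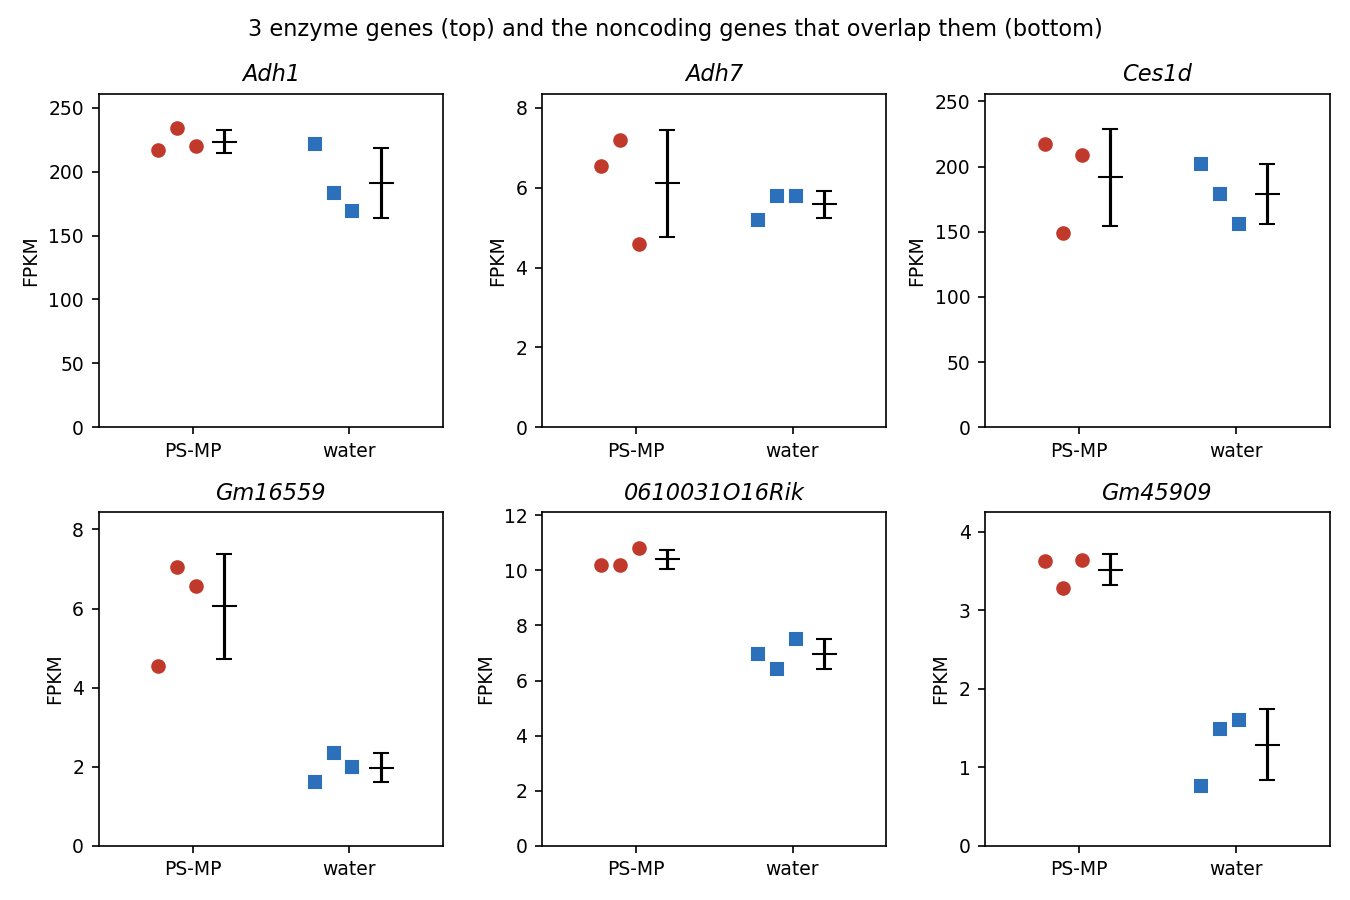
FPKM in each library of Adh1, Adh7 and Ces1d (top) and of the genes that overlap them (bottom), with circles for PS-MP, squares for water and the mean with SD (n = 3 each) beside each group. The overlapping genes are the antisense genes Gm16559 and 0610031O16Rik and Gm45909, a model of the provisional class TEC. Circles and squares overlap for the 3 enzyme genes and are apart for the 3 overlapping genes.

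Genes of the same pathways outside the families were described in 6 lists with 156 tested genes. Limma-trend called 3 of them (1.92%), against 0.489% of all genes tested, and limma-voom called 5 (3.21%), against 1% of all genes tested. The lists were chosen with earlier results known, so these shares are a description. Of 26 tested genes of ethanol and aldehyde metabolism 0 were called and 2 (7.69%) had an unadjusted p under 0.05, against 13.1% of all genes tested, with a median log2 fold change of 0.07. The smallest p belonged to Akr1d1, a bile acid reductase, with 55.7, 44.4 and 61.2 FPKM in PS-MP and 32.0, 38.0 and 32.1 FPKM in water (log2 fold change 0.64, adjusted p 0.0967 in limma-trend and 0.0414 in limma-voom). The groups of Akr1d1 were apart, and so were those of Akr1c19 (log2 fold change 0.41, adjusted p 0.291). Of 27 genes of retinoid handling 0 were called and 2 were higher and 2 lower at an unadjusted p under 0.05 (14.8% in all), with a median of -0.04. Dhrs3, which reduces retinaldehyde back to retinol, had 26.2, 27.6 and 29.1 FPKM in PS-MP and 44.5, 35.8 and 35.8 FPKM in water (log2 fold change -0.47, adjusted p 0.107), and Rxra, the retinoid X receptor, had a log2 fold change of 0.24 (adjusted p 0.220).

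Of 25 other esterases and lipases 0 were called in limma-trend while 3 (12%) were higher and 5 (20%) lower at an unadjusted p under 0.05, against 7.49% higher and 5.57% lower over all genes tested, with a median of -0.04. The smallest p values were those of Lipa, the lysosomal acid lipase, with a log2 fold change of -0.39 (adjusted p 0.107 in limma-trend), and of the lysophospholipase Pnpla7, with -0.34 (adjusted p 0.110). Of 18 Cyp2c, Cyp2j and Cyp1 genes 0 were called and 1 (5.56%) had an unadjusted p under 0.05 in limma-trend, with a median of -0.09. The list was written for enzymes that make epoxides, which epoxide hydrolases remove, but not every member need do so. Cyp2c39 had a log2 fold change of 0.36 (adjusted p 0.252) and Cyp2c54 of -0.17 (adjusted p 0.391).

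Among the reaction partners of the amino acid and folate aldehyde dehydrogenases, Prodh, the step before Aldh4a1 in proline breakdown, had 22.4, 19.4 and 28.7 FPKM in PS-MP and 13.0, 16.1 and 14.3 FPKM in water (log2 fold change 0.67, adjusted p 0.116 in limma-trend). Every PS-MP library lay above every water library for Prodh, whereas the groups of Aldh4a1 overlapped. Of 30 transcription factors known to act on genes of drug metabolism, Dbp and Tef were called, both higher, against 0.489% of all genes called in either direction. The median was -0.02. At an unadjusted p under 0.05, 7 (23.3%) of the 30 were higher and 5 (16.7%) lower, against 7.49% and 5.57% of all genes tested. The calls of Dbp and Tef were kept in 7 of 15 alternatives each. With 1 library left out, Dbp stayed called without water replicate 2 (adjusted p 0.0350 in limma-trend) and lost its call without any other library, and Tef lost its call without any 1 of the 6, at adjusted p up to 0.160 for Dbp and 0.167 for Tef.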

How the data were processed

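Values are FPKM as deposited, computed by the authors for each gene of a library. The tools, per the submitters' processing notes, were CASAVA, FastQC, MultiQC, Trimmomatic 0.38, HISAT2 2.1.0, featureCounts 1.6.0 and DESeq2 1.22.1. GRCh38, a human build, stands in those notes, but all 55536 identifiers are those of mouse GENCODE M21 on GRCm38, which gave symbols and coordinates. The sources used here do not give the use of strand or whether reads or pairs were counted.

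FPKM times merged exon length gave whole reads within 0.001 for 100.0% of values, and the totals ran from 13082210 to 16948343. Genes were tested with at least 0.66 CPM (10 reads in a median library) in at least 3 libraries and 15 reads in all, which left 13299. The test was limma-trend (limma 3.58.1, R 4.3.3), two-sided, on log2(FPKM + 0.5), with group as the only term and Benjamini-Hochberg adjustment over all genes at 0.05. Adding 0.5 understates the change of low genes. The procedure was tested on simulated data whose changes were larger than those estimated for the enzyme genes. That test therefore does not show how well changes of the size reported here are found. Limma-voom on the recovered reads was an alternative. Tables, motifs, alignments and figures were made with Python 3.11.15, pandas 2.3.3, numpy 2.4.6, Biopython 1.88 and matplotlib 3.10.9.

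The enzyme genes and lists were chosen with earlier results of these data known. Given in full were the 3 most abundant genes of each family, the 5 positive and 5 negative log2 fold changes with the smallest p, and any called gene; from each list, any called gene and up to 2 with the smallest p; some genes that meet these rules are not reported here. Other genes given library by library (Ces3b, Ces1g, Ces4a, Car3, Adipoq, Cfd, Ucp1, Snap25, Slc1a2, Slc1a3, Aqp4, Ephx4) and the genes overlapping the families were chosen after their values were seen. Protein sequences are not used here. Promoter windows were planned only for called enzyme genes; as none was called, those shown were chosen after the data were seen.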

Additional observations from a re-analysis of the deposited data

How the results depend on the processing

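No enzyme gene was called under any of the 15 alternatives: pseudocounts of 0.1 and 1, no low-value rule, at least 1 FPKM in at least 3 libraries, median-of-ratios and TMM scaling, limma-voom, robust empirical Bayes, a replicate block, and leaving out each library. The smallest adjusted p among the enzyme genes ran from 0.169 to 0.507. Median-of-ratios scaling turned 3 fold changes near 0, Aldh2 to -0.017, Ces1b to -0.007 and Ces1g to -0.008. TMM turned 5, Aldh2 to -0.028, Ces1b to -0.018, Ces1g to -0.019, Aldh5a1 to -0.002 and Aldh7a1 to -0.003. Leaving out 1 library moved the log2 fold change of Adh4 between -0.21 and 0.014, Aldh1a1 between -0.052 and 0.16, Aldh2 between -0.036 and 0.049, Ces1c between -0.095 and 0.017, Ces1d between -0.012 and 0.26, Ces3a between -0.087 and 0.09, Ephx1 between -0.086 and 0.16, Fmo2 between -0.018 and 0.37, Ces1b between -0.012 and 0.036, Ces1e between -0.25 and 0.041, and Ces1g between -0.2 and 0.22; Ces3b stayed positive, between 0.14 and 0.57. Groups not overlapping numbered 6 to 11 with 1 library left out. That count cannot be set against the 4 of all libraries, as the share over all genes was not computed there. The 3 calls in the related lists became 0 with no low-value rule, 5 with limma-voom and 1 with the replicate block, and 0 to 3 with 1 library left out; the cause was not tested. Over all genes, calls numbered 65, but 0 with no low-value rule (26854 genes), 133 with limma-voom, 23 with the replicate block and 0 to 36 with 1 library left out. Libraries share only a replicate number: deviations of those with the same number correlated at -0.0356, 0.0465 and -0.0102. With 3 libraries a group and intervals as wide as those given, small differences were not detectable.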
